A study of Mus musculus with 30 samples.

Results

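Axon guidance ligands and receptors are the secreted or membrane-bound cues, and the growth cone proteins that read them, that steer axons to their targets. The 43 genes described here were chosen by name from the Slit, Robo, netrin, semaphorin, neuropilin, plexin, ephrin and Eph families, and all 43 had a row in the expression table of 54393 genes. They also accounted for 2629 of the 661327 rows of the splicing table. RNA-seq of polyadenylated RNA was made from 30 libraries in 15 groups, 5 lines at 3 stages with 2 libraries (A and B) per group. The lines were the parental CGR8 mouse embryonic stem cell line (WT) and 4 lines edited from it with CRISPR-Cas9. Puf60_mEx5_HOM is labelled as a homozygous deletion of exon 5 of the splicing factor gene Puf60, Puf60_pEx5_HOM and Puf60_pEx5_HET as making exon 5 constitutive on both alleles or on 1 allele, and Rbm38KO as a deletion of about 1300 bp within Rbm38, another RNA-binding protein gene. The stages were embryonic stem cells (ESC), embryoid bodies at day 8 (EB8), which received 6 µM retinoic acid while they formed, and cultures grown from them for 7 days and labelled as glutamatergic neurons (DIV7). The edited lines are clonal, and the series text speaks of independent clones without saying which library is which, so p-values measure the spread between these libraries, which may be technical.

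Slit proteins bind Robo receptors and mostly repel axons, which is best known at the midline of the spinal cord, where Robo3 is required for commissural axons to cross. Netrin-1 attracts axons through DCC and neogenin and repels them where Unc5 receptors take part. Class 3 semaphorins act through neuropilins and plexins, other semaphorins bind plexins directly, and ephrins act on neighbouring cells through the Eph receptor tyrosine kinases. Many of these genes are known to be alternatively spliced in neurons, often by very short exons called microexons.

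The libraries held 23204150 to 38571969 exon junction reads. Puf60 exon 5 was included in 20.7 to 44.0% of transcripts in the WT libraries, 93.2 to 99.0% in Puf60_pEx5_HOM, 49.2 to 64.9% in Puf60_pEx5_HET and 22.9 to 48.4% in Rbm38KO. The libraries labelled Puf60_mEx5_HOM still gave 7.49 to 13.01%, from 133 to 314 reads over the junction downstream of the exon against 0 to 6 over the upstream junction, where WT had 257 to 496. In junction reads scaled to library size (CPM), Puf60 itself was also lower in this line. At ESC it had 222 and 213 CPM against 344 and 328 in WT. It had 230 and 253 against 335 and 318 at EB8, and 166 and 180 against 243 and 264 at DIV7. The part of this lower level in the results was not tested. Rbm38 had 0 junction reads in all 6 Rbm38KO libraries and 232 to 2578 in WT. In all 6 Puf60_mEx5_HOM libraries 4 Y-linked genes had 0 reads, against 2269 to 6267 in the libraries of the other lines, a difference from WT beyond Puf60. The summed level of 8 neuron markers in WT was 282 to 298 CPM in the ESC libraries, 1242 to 1385 in those of EB8 and 3616 to 4198 in those of DIV7. The DIV7 WT libraries also held astrocyte markers (1190 to 1241 CPM summed over 7 genes) and fibroblast and mesenchyme markers (642 to 2121 CPM over 8 genes). In such bulk samples a different number of cells of a type and a different amount of RNA per cell cannot be told apart, and the part of these cell types in the results was not tested.

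Many of the guidance genes were low in WT stem cells, and most were higher in embryoid bodies. Gene levels below are CPM of exon junction reads, fold changes are on the scale of log2(CPM + 1) with their standard error (SE), and a gene counted as called when its change was at least 2-fold with a Benjamini-Hochberg adjusted p below 0.05. From ESC to EB8, 31 of the 43 genes rose, where 21.7% of all 13938 genes fitted were called higher, and 2 fell, where 18.2% were called lower. Their median change was 1.83 on the log2 scale, against 0.03 over all genes. From EB8 to DIV7, 16 rose (17.6% of all genes were called higher), 5 fell (12.7% lower) and 22 were not called, with a median of 0.47 against 0.02. Scaling each library to its total moved the median of all genes in the first step to 0.42 and gave 4260 genes higher and 1487 lower in place of 3023 and 2542, with 35 and 2 of the guidance genes. In the second step that scaling gave 2174 and 2245 in place of 2451 and 1766, with 15 and 5 guidance genes, and quantile scaling gave 2226 and 2247, with 15 and 7. Quantile scaling gave 2524 and 2744 in the first step, with 32 and 2.

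Over both steps the genes followed 6 courses. Called higher in both steps were 12 genes, Efnb3, Epha5, Epha7, Ephb1, Plxna4, Plxnc1, Robo2, Sema3a, Sema6d, Slit1, Unc5c and Unc5d. Another 14 rose to EB8 and were not called after it, 5 rose and then fell (Efna2, Epha3, Plxnd1, Robo3 and Unc5a), and 4 were called only in the second step (Efna3, Nrp2, Sema3d and Sema6a). Sema3e and Unc5b fell to EB8 and were not called afterwards, and Epha4, Ephb3, Plxna1, Plxnb2, Sema3c and Slit3 were called in neither step. By RPKM (reads per kilobase of transcript, scaled to depth, 1 value per group in the authors' deposited table), 17 of the 43 genes were under 1 in WT ESC and 2 were at EB8 and at DIV7. Another 17 were at 5 RPKM or more in WT ESC. The highest was the plexin gene Plxna1 at ESC (29.1 RPKM) and the netrin gene Ntn1 at EB8 (55.8) and at DIV7 (93.5). Dcc was the lowest at ESC (0.02 RPKM), Sema3d at EB8 (0.34) and Robo3 at DIV7 (0.86). These group values have no replicate, so neighbours in the order cannot be told apart by their spread.

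**Figure D1:**
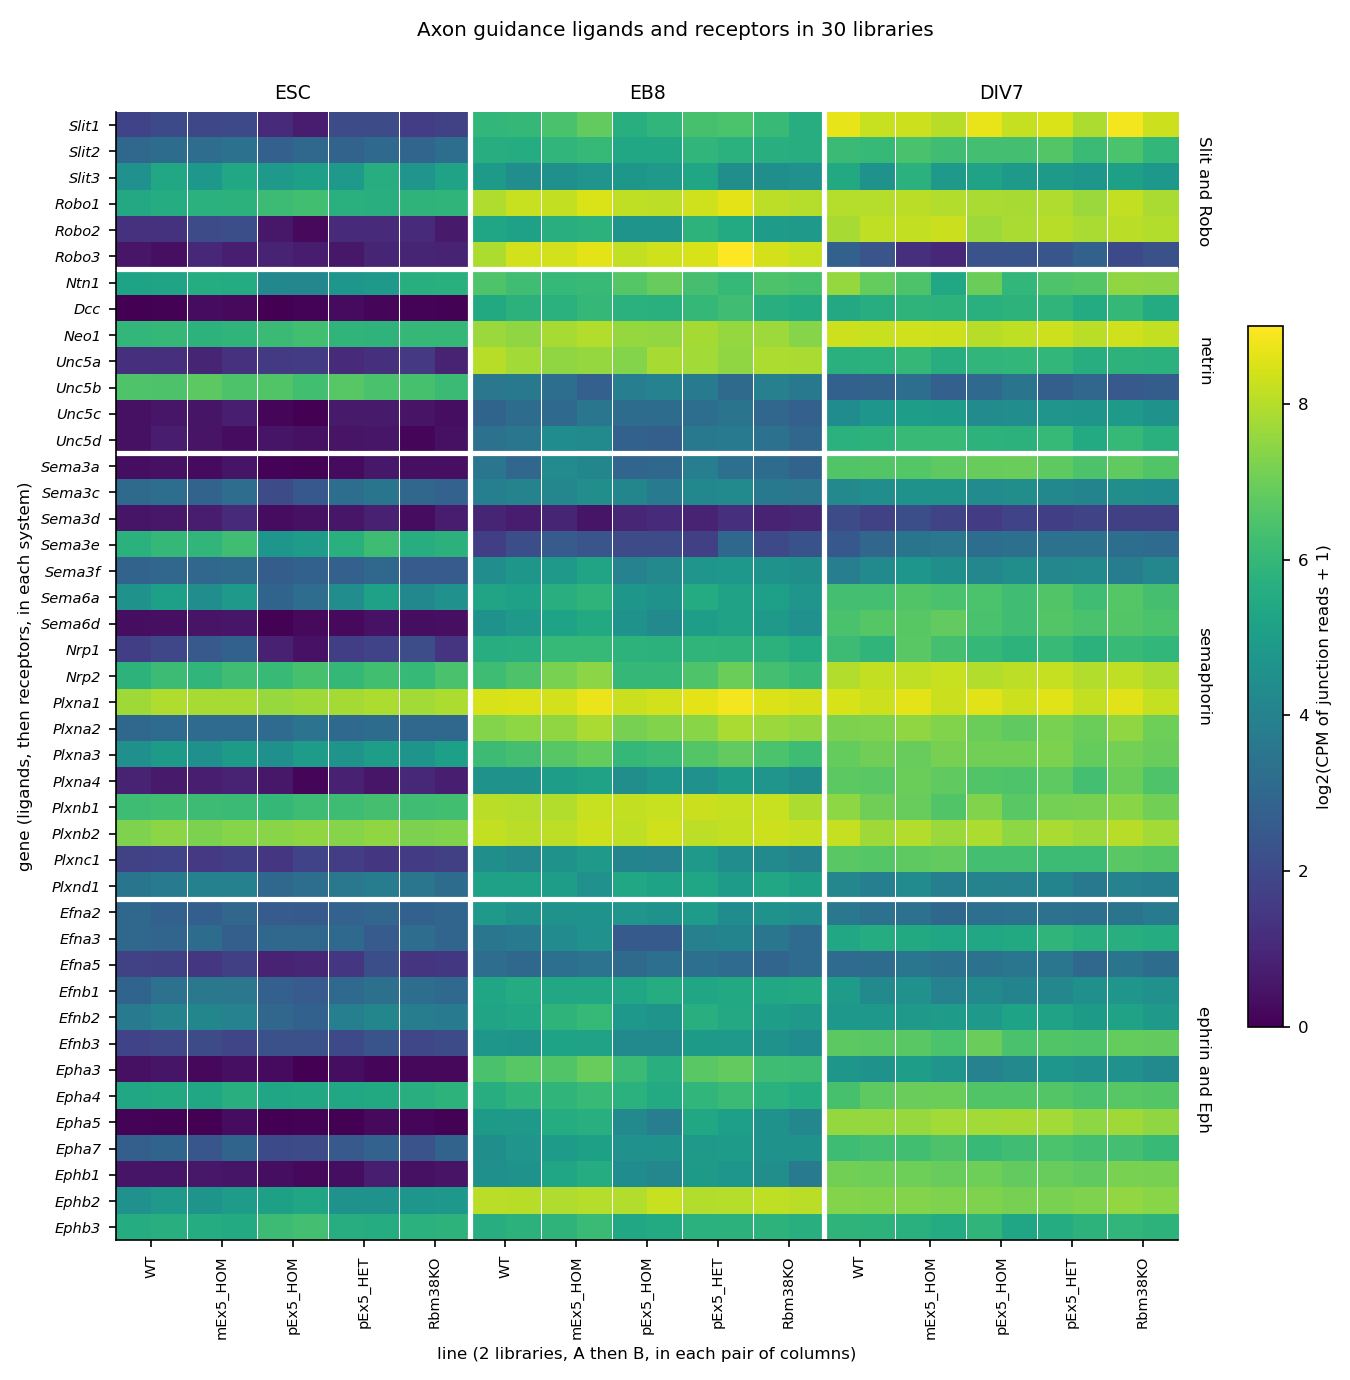
Level of each of the 43 genes as log2(CPM + 1) of exon junction reads, in color, with genes in rows by system (ligands before receptors) and the 30 libraries in columns by stage and line. Most rows turn from dark to bright between ESC and EB8 in all 5 lines, Sema3e and Unc5b turn darker, and Robo3 is bright only at EB8.

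**Figure D2:**
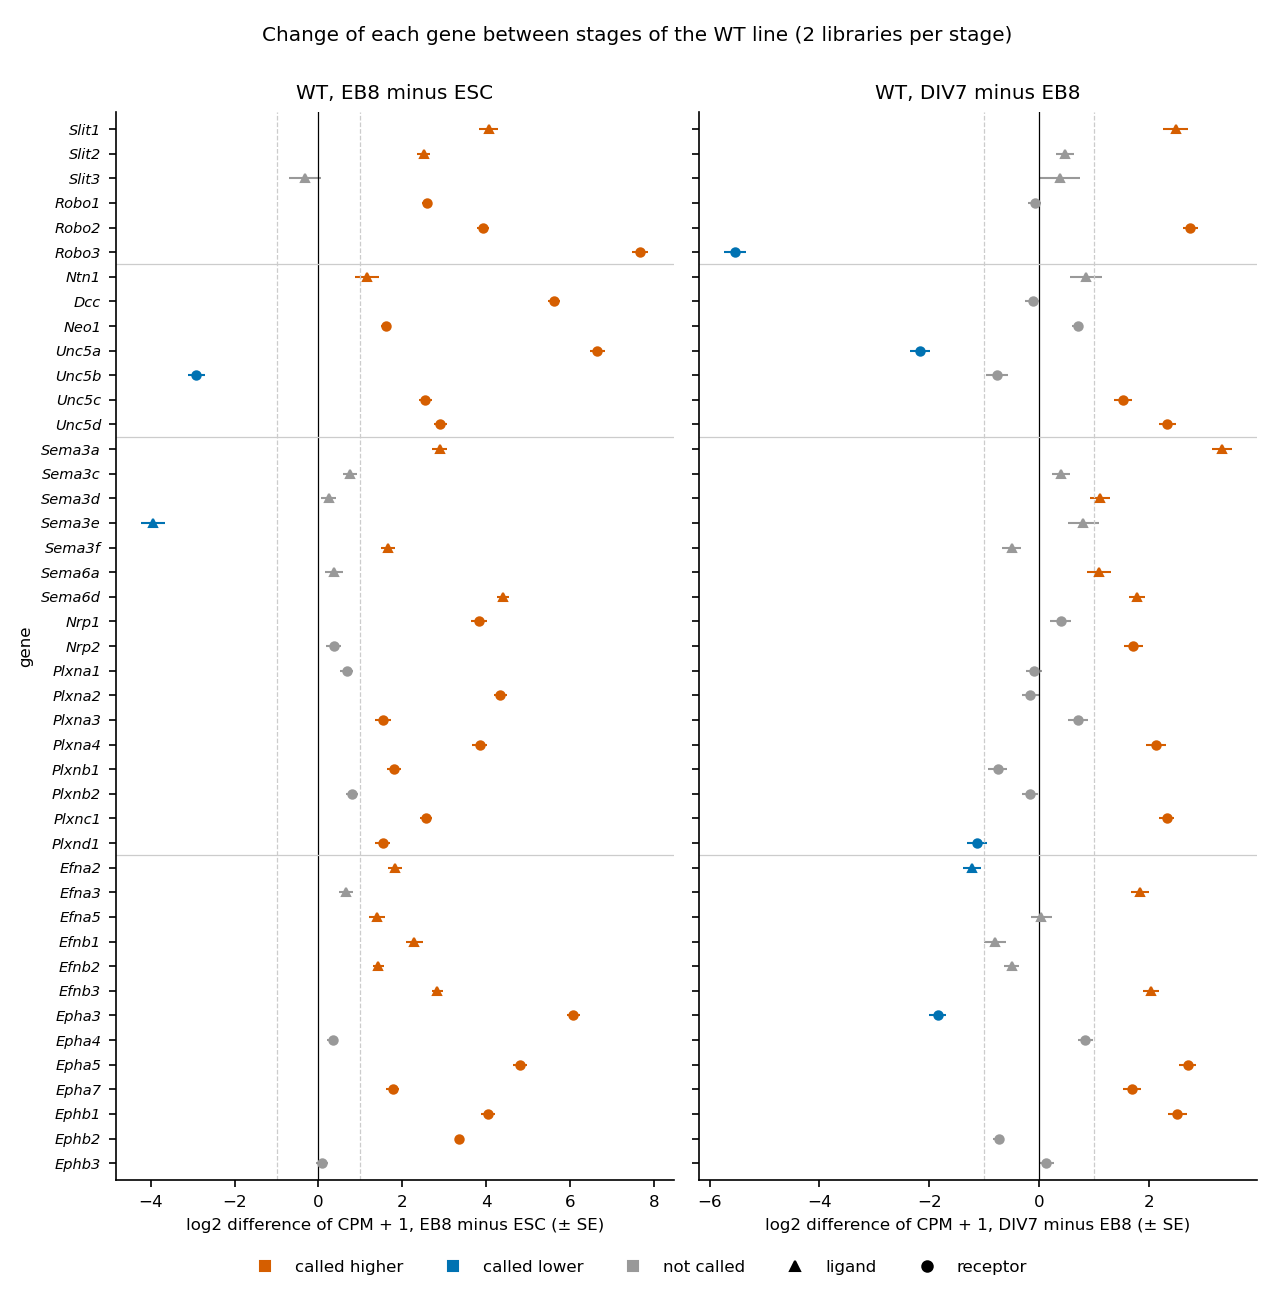
The log2 difference of CPM + 1 (± SE, from a fit over all 30 libraries) of each gene between WT stages, EB8 minus ESC on the left and DIV7 minus EB8 on the right, with triangles for ligands, circles for receptors and dashed lines at a 2-fold change. In the first step 31 genes are called higher and 2 lower, and Robo3 has both the largest rise (7.67) and, in the second step, the largest fall (-5.53).

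Of the Slit ligands, Slit1 and Slit2 rose and Slit3 was not called. Slit1 had 2.54 and 3.04 CPM in the WT ESC libraries, 62.2 and 62.4 at EB8, and 409 and 302 at DIV7. Each stage lay apart from the one before, with a change of 4.06 ± 0.22 in the first step (SE, adjusted p = 1.26e-12) and 2.48 ± 0.22 in the second (4.64e-09). Slit2 rose by 2.51 ± 0.16 in the first step (1.9e-12), and its second change was 0.47 ± 0.16. Slit3 ranged from 20.4 to 43.3 CPM over the 6 WT libraries, with overlap between stages.

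The 3 Robo receptors parted after EB8. Robo3 was at 0.47 and 0.28 CPM at ESC (14 and 8 reads), 235 and 332 at EB8, and 6.04 and 4.23 at DIV7. On the log2(CPM + 1) scale Robo3 changed most of the 43 in both steps, by 7.67 ± 0.20 (6.48e-19) and then -5.53 ± 0.20 (5.51e-16). That scale holds down the change of genes almost without reads at ESC, such as Dcc, so the order in the first step depends on it. Robo2 was at 1.46 and 1.52 CPM, then 38.8 and 34.9, then 225 and 286, which was a rise of 3.92 ± 0.14 (1.77e-16) and of 2.75 ± 0.14 (1.7e-13). Robo1 rose to EB8 by 2.59 ± 0.12 (1.62e-14) and then held 244 to 305 CPM over the 4 EB8 and DIV7 libraries, a second change of -0.08 ± 0.12. On the RPKM scale of the authors' deposited table, the order at EB8 was Robo3 (45.6), Robo1 (36.3) and Robo2 (9.89), and at DIV7 Robo2 (51.4), Robo1 (31.4) and Robo3 (0.86).

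Several Slit and Robo transcripts were alternatively spliced at exons of 27 nt or less, and these sequences are printed because the splicing results turn on them. The Slit1 exon, included in nearly all WT transcripts at EB8 and DIV7, is printed for comparison with that of Slit2. Capitals mark the alternative exon and lower case the last 15 bases of the exon before it and the first 15 of the exon after it, read 5′ to 3′ on the transcript strand from GENCODE vM21 transcripts (GRCm38), or for the Robo1 9-nt exon from the deposited splicing table with GENCODE flanks.
Slit1 24-nt exon: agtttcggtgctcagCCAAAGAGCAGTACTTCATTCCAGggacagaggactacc
Slit2 24-nt exon: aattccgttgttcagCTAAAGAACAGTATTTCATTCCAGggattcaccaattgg
Slit2 12-nt exon: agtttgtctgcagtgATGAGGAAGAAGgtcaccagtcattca
Slit2 27-nt exon: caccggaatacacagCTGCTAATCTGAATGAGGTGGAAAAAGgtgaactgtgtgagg
Robo1 9-nt exon: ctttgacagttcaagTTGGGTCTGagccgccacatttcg
Robo1 27-nt exon: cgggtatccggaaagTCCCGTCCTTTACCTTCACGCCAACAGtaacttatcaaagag
Robo2 12-nt exon: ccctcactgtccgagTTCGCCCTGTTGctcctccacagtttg
All 7 lengths are multiples of 3. The exons lie at chr19:41638883-41638906 (Slit1, minus strand, exon 15 of 37 of Slit1-201), chr5:48220967-48220990, chr5:48191003-48191014 and chr5:48263641-48263667 (Slit2, plus strand), chr16:72956275-72956283 and chr16:72993667-72993693 (Robo1, plus strand) and chr16:74008775-74008786 (Robo2, minus strand, exon 7 of 29 of Robo2-210). All but the Robo1 9-nt exon match a coding exon of GENCODE vM21, which has none with exactly those ends.

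Inclusion is given as PSI, the percent of transcripts spliced in, and events counted as called when PSI differed by at least 10 points with an adjusted p below 0.05. Over all members, 9 events in 6 genes were called from ESC to EB8 among 40 with enough reads (22.4% of the members' table rows against 13.6% of all rows), and 22 events in 14 genes from EB8 to DIV7 among 82 (25.5% against 16.7%). The Slit1 and Slit2 24-nt exons share 21 of 24 bases, yet their PSI differed. The Slit1 exon had a PSI of 100 and 98.4 at EB8 and 100 in both DIV7 libraries, while the Slit2 exon had 65.3 and 64.7 at EB8 and 51.9 and 43.6 at DIV7. The second change of the Slit2 exon did not pass the test (-17.2 points, adjusted p = 0.148).

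The Slit2 27-nt exon had a PSI of 0 in both WT ESC libraries, where 0 of 19 and of 21 reads allow up to 15.8% and 14.3% (3 counts, counting error only), and it reached 54.9 and 46.7 at EB8 and 58.2 and 76.8 at DIV7. The gain of 50.8 points at EB8 passed the test (adjusted p = 0.00239), and the later 16.7 points did not (0.0796). The Slit2 12-nt exon, which had 6 to 68 reads in a library, went from 0 and 0 (limits of 27.3% and 16.7%) to 76.5 and 63.6 and then 63.6 and 84.6, and was not in the fit of the first step. Its second change was 4.08 points (adjusted p = 0.936).

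Robo1 had called exons of 9 and 27 nt. The 27-nt exon, exon 18 of 29 of Robo1-201, was at 85.9 and 72.8 at ESC, 94.2 and 96.7 at EB8, and 94.9 and 95.1 at DIV7, a rise of 16.1 points in the first step (adjusted p = 0.000182) that was 9.5 points (0.0543) without ESC B. In the second step the 9-nt exon fell from 29.3 and 25.5 at EB8 to 2.65 and 7.27 at DIV7 (-22.5 points, 0.00158). The WT ESC library with enough reads stood at 95.1, further from EB8 than DIV7 was, but the first step was not in the fit. The 2 flanking junctions of this exon were unevenly covered in 4 of 27 libraries. A 78-nt Robo1 event also passed in the second step, but its junctions were uneven in 30 of 30 libraries.

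In Robo2, the 12-nt exon went from 49.8 and 60.0 at EB8 to 42.7 and 35.5 at DIV7 (-15.8 points, adjusted p = 0.0396), a call lost without EB8 A (0.0519), EB8 B (0.316) or DIV7 B (0.24). The 126-nt exon, exon 21 of 28 of Robo2-203 at chr16:73933046-73933171, rose from 52.9 and 65.1 to 80.8 and 86.6 (24.7 points, 0.000901). Too few Robo2 reads were present at ESC to test either. The 273-nt exon, exon 26 of 28 of the same transcript, was at 38.5 and 40.3 at EB8 and 33.5 and 40.4 at DIV7, a difference of -2.44 points that did not pass (0.731).

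Ntn1, the netrin ligand, was already present at ESC, with 36.2 and 36.9 CPM, and had 91.9 and 74.8 at EB8 and 193 and 116 at DIV7. It rose by 1.16 ± 0.29 to EB8 (adjusted p = 0.00141), and the second change of 0.85 ± 0.29 stayed under 2-fold. An event at its 1082-nt second exon was called in the first step (77.0 to 99.4%), but the junctions beside it were unevenly covered in 20 of 30 libraries.

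The netrin receptors did not all change in the same direction. Unc5a had 1.39 and 1.38 CPM at ESC, 262 and 217 at EB8, and 51.6 and 52.9 at DIV7. It rose by 6.65 ± 0.18 (2.91e-18) and then fell by 2.17 (SE 0.18, 5.84e-10). Unc5b ran the other way, from 91.6 and 88.8 at ESC to 10.8 and 11.4 at EB8 and 6.00 and 6.25 at DIV7, a first change of -2.91 ± 0.20 (2.05e-11). At ESC it was the highest of the 4 Unc5 genes on the RPKM scale of the authors' deposited table (17.6, against 0.29 for Unc5a, 0.18 for Unc5c and 0.10 for Unc5d). At DIV7 it was the lowest of them (1.10, against 10.01, 5.53 and 13.6 in the same order).

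Unc5d, a dependence receptor like the other Unc5 proteins, went from 0.34 and 0.60 CPM to 9.54 and 10.6 and then 52.6 and 56.3. Its second change was 2.33 ± 0.16 (2.59e-11), and Unc5c rose in both steps as well, by 2.55 ± 0.16 and 1.52 ± 0.16. Dcc, the main attractive receptor, had 0 and 1 reads in the ESC libraries, 43.9 and 54.5 CPM at EB8, and 42.6 and 47.5 at DIV7. By reads, EB8 had 3465 against 1, a ratio of 2843 with an exact 95% interval of 510 to 112322 that covers counting error only. Neo1, its relative neogenin, rose from 60.9 and 63.7 to 201 and 182 and then 316 and 305 CPM, by 1.60 ± 0.10 (2.56e-12) and by 0.70 ± 0.10, the latter under 2-fold.

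Neo1 carried the largest change in splicing of the 43 genes from EB8 to DIV7, and 3 of its segments changed in both steps. They are printed, with Unc5a and Unc5b exons that also switched, from GENCODE vM21 transcripts with the alternative segment in capitals and 15 exonic bases on each side.
Neo1 33-nt exon: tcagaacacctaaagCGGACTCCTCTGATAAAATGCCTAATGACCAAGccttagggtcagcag
Neo1 159-nt exon: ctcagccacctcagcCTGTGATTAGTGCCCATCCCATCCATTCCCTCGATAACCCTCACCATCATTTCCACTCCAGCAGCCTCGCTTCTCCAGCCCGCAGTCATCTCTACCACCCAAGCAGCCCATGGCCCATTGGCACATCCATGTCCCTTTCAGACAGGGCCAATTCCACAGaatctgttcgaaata
Neo1 48-nt segment: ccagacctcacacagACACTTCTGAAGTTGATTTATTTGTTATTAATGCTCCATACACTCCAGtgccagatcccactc
Unc5a 168-nt exon: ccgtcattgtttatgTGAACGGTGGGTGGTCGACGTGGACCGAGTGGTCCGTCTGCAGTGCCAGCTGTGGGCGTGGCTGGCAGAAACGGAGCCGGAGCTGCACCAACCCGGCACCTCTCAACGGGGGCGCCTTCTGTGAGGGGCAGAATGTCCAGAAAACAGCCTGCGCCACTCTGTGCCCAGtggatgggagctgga
Unc5b 33-nt exon: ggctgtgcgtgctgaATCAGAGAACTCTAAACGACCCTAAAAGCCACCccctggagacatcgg
The Neo1 33-nt and 159-nt exons are exons 21 and 26 of 29 of Neo1-201, at chr9:58902083-58902115 and chr9:58884470-58884628 on the minus strand, and both are coding. The splicing table counts acceptors of the longer exon together and lists it as 95 nt. The 48-nt segment, at chr9:58907047-58907094, is added when the upstream of 2 acceptors is used. The Unc5a exon is exon 6 of 16 of Unc5a-201 (chr13:54997193-54997360, plus strand) and codes for part of the thrombospondin type 1 region outside the cell. The Unc5b exon is exon 8 of 17 of Unc5b-201 (chr10:60777185-60777217, minus strand).

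The Neo1 159-nt exon was almost always included in stem cells and almost always skipped at DIV7. Its PSI was 96.6 and 97.3 at ESC, 76.3 and 74.1 at EB8, and 9.93 and 7.05 at DIV7. The step to DIV7 was -66.7 points (adjusted p = 6.18e-14) and the earlier one -21.8 points (2.78e-07). The 33-nt exon went the opposite way, from 0 and 0 (limits of 2.04% and 1.83%) to 29.3 and 35.05 and then 77.9 and 83.9, by 32.2 points (5.03e-05) and 48.7 points (3.01e-10). The acceptor that leaves out the 48 nt was used in 93.2 and 100% at ESC, 59.7 and 53.4% at EB8 and 10.6 and 8.49% at DIV7, by -40.1 points (0.000445) and -47.0 points (1.01e-07). Events with a 60-nt acceptor of Neo1 passed in both steps too (the first lost without ESC B or EB8 B, adjusted p = 0.0776 and 0.0743), so 4 of the 9 events of the first step and 4 of the 22 of the second lay in this gene.

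Unc5a changed in level and in splicing at the same step. Its 168-nt exon had a PSI of 5.69 and 7.16 at EB8 and 62.6 and 72.4 at DIV7, a rise of 61.1 points (adjusted p = 3e-13), while the ESC libraries had too few reads. In Unc5b the 33-nt exon fell from 95.4 and 98.5 at ESC to 53.8 and 54.1 at EB8 (-43.0 points, 4.07e-06), with 32.5 and 53.6 at DIV7. The Unc5d 15-nt microexon had 30.6 and 14.9 at EB8 and 18.2 and 17.9 at DIV7, so the EB8 libraries lay further apart than the stage means. Dcc used the longest of 3 acceptors of an internal exon in 72.9 and 69.01% at EB8 and 94.1 and 100% at DIV7 (26.1 points, adjusted p = 0.00295), an event chosen for mention after its values were seen.

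Of the 7 semaphorin ligands, 3 rose and 1 fell to EB8, and 4 rose to DIV7. Sema3a, a repellent for many axons, had 0.27 and 0.32 CPM at ESC, 10.6 and 6.93 at EB8, and 93.1 and 96.7 at DIV7. It had the largest rise of the 43 genes in the second step, 3.32 ± 0.18 (3.36e-13), after 2.89 ± 0.18 in the first. Sema6d, a transmembrane ligand, had 0.27 and 0.28 CPM, then 23.4 and 28.7, then 84.0 and 99.3, with a first change of 4.40 ± 0.14 (2.13e-17). Sema3e fell from 52.9 and 63.4 CPM to 2.22 and 3.54, and stood at 4.64 and 6.88 at DIV7, a first change of -3.95 ± 0.28 (5.36e-11). Sema3f was called higher only in the first step, and Sema3d and Sema6a were called only in the second step, Sema3d from under 1 CPM.

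Of the semaphorin receptors, 7 of 10 rose to EB8 and none fell. Plxna2, a plexin A receptor, went from 7.12 and 7.81 CPM to 163 and 177, a rise of 4.34 ± 0.15 (9.24e-17), and then held 150 and 153. Plxna4 went from 0.81 and 0.57 to 23.04 and 23.4 and then 106 and 104, rising by 2.12 ± 0.18 (7.31e-10) in the second step. Plxnc1, the receptor for Sema7a, had 2.37 and 2.54, then 21.3 and 17.9, then 105 and 98.3, with a second rise of 2.32 ± 0.14 (2.6e-12). Plxna1 and Plxnb2, with 212 to 371 and 152 to 294 CPM in the WT libraries, were called in neither step, although both passed in the first under scaling to the total (1.15 and 1.28) and under quantile scaling (1.16 and 1.22).

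The neuropilins, co-receptors of class 3 semaphorins, rose at different steps. Nrp1 went from 2.20 and 2.76 CPM to 47.4 and 50.1 and then 71.0 and 57.8, with its called rise in the first step (3.84 ± 0.19, 3.91e-14). Nrp2 went from 55.2 and 72.1 to 74.0 and 89.8 and then 253 and 287, with its called rise in the second (1.71 ± 0.17, 2.45e-08). Nrp2 also changed at a 51-nt coding exon near its 3′ end, exon 16 of 17 of Nrp2-202 (chr1:62812534-62812584, plus strand), printed because the edited lines differed at it as well.
Nrp2 51-nt exon: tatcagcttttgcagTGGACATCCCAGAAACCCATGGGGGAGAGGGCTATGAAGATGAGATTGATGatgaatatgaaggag
Its PSI was 52.6 and 65.2 at ESC, 50.6 and 53.1 at EB8, and 76.1 and 78.7 at DIV7, a second change of 25.6 points (adjusted p = 5.97e-06). The called exons of Sema6a moved at different steps, the 51-nt exon from 1.28 and 2.36 at ESC to 16.9 and 10.8 at EB8 (12.01 points, 0.00902, lost without ESC A or ESC B and 9.0 points without EB8 A) and the 165-nt exon from 78.8 and 82.3 at EB8 to 56.8 and 47.6 at DIV7 (-28.3 points, 0.000125).

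Among the ephrins, 5 of 6 rose to EB8. Efnb3, the ephrin of the midline that stops corticospinal axons from recrossing, had 2.54 and 2.76 CPM, then 26.1 and 24.2, then 106 and 105. Its second rise was 2.03 ± 0.14 (1.6e-11). Efna3 was called only in the second step, from 10.5 and 12.5 to 40.3 and 46.6 CPM (1.83 ± 0.17, 1.92e-09), after 7.12 and 6.64 at ESC. Efna2, a ligand of EphA receptors, peaked at EB8, with 6.98 and 6.04, then 27.5 and 23.9, then 11.3 and 9.60 CPM, and fell by 1.22 in the second step (SE 0.16, 7.04e-07).

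The Eph receptors included genes that were nearly silent in stem cells. Epha5 had 2 reads and 1 read at ESC, 29.3 and 27.9 CPM at EB8, and 190 and 191 at DIV7. By reads EB8 had 2015 against 3, a ratio of 551 with an exact 95% interval of 188 to 2674 (counting error only), and the second rise was 2.70 ± 0.16 (1.1e-12). Epha3 had 0.34 and 0.42 CPM at ESC, 84.5 and 102 at EB8, and 26.3 and 23.7 at DIV7, with changes of 6.08 ± 0.16 (1.34e-18) and -1.85 ± 0.16 (1.22e-09). Ephb1 went from 0.44 and 0.42 to 21.9 and 23.1 and then 137 and 128, by 4.04 ± 0.17 (1.55e-15) and 2.51 ± 0.17 (1.06e-11). Ephb2 was called only in the first step (3.36 ± 0.10, 1.03e-17), while Epha4 and Ephb3 were called in neither step.

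The splicing changes called in ephrin and Eph transcripts of WT lay in the step to DIV7. Of the exons concerned, 2 coding ones are printed here from GENCODE vM21, in the same format.
Efnb2 93-nt exon: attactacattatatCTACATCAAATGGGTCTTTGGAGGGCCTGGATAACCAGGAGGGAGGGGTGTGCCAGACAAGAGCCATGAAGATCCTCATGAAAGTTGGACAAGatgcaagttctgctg
Epha5 66-nt exon: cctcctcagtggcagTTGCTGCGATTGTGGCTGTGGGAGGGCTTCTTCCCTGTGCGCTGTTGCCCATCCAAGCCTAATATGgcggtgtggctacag
The Efnb2 exon is exon 3 of 5 of Efnb2-201 (chr8:8623148-8623240, minus strand) and the Epha5 exon is exon 7 of 16 of Epha5-201 (chr5:84117561-84117626, minus strand). Efnb2 included its exon fully at ESC (100 and 100), at 94.9 and 93.3 at EB8 and at 63.6 and 64.8 at DIV7, a second change of -29.9 points (adjusted p = 5.01e-09). Epha5 included its exon in 11.6 and 16.05% at EB8 and 51.1 and 53.4% at DIV7, a rise of 38.4 points (6.44e-07). The ESC libraries had too few Epha5 reads to test the first step. Of the remaining events called in the second step, chosen for mention after their values were seen, a 156-nt exon of Sema6d fell from 43.6 and 39.6 to 23.5 and 22.04 (-18.8 points, 0.0124, lost without EB8 A or DIV7 B), a 336-nt exon of Epha5 by 12.6 points (0.00977, lost without EB8 A, EB8 B or DIV7 B) and use of a 27-nt donor segment of Nrp1 by 27.1 points (0.000787). The others were intron events in Slit1, Slit2, Epha5, Plxna3 and Unc5a. Reads at the ends of the intron were uneven (the table's own balance p under 0.05) in all 4 of these WT libraries for Slit1 and Epha5, in 2 of 4 for Slit2, and in 0 of 4 for Plxna3 and Unc5a. The Slit1 call was lost without EB8 B or DIV7 A, that of Unc5a without EB8 A, DIV7 A or DIV7 B, and that of Epha5 without any 1 of the 4 libraries.

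**Figure D3:**
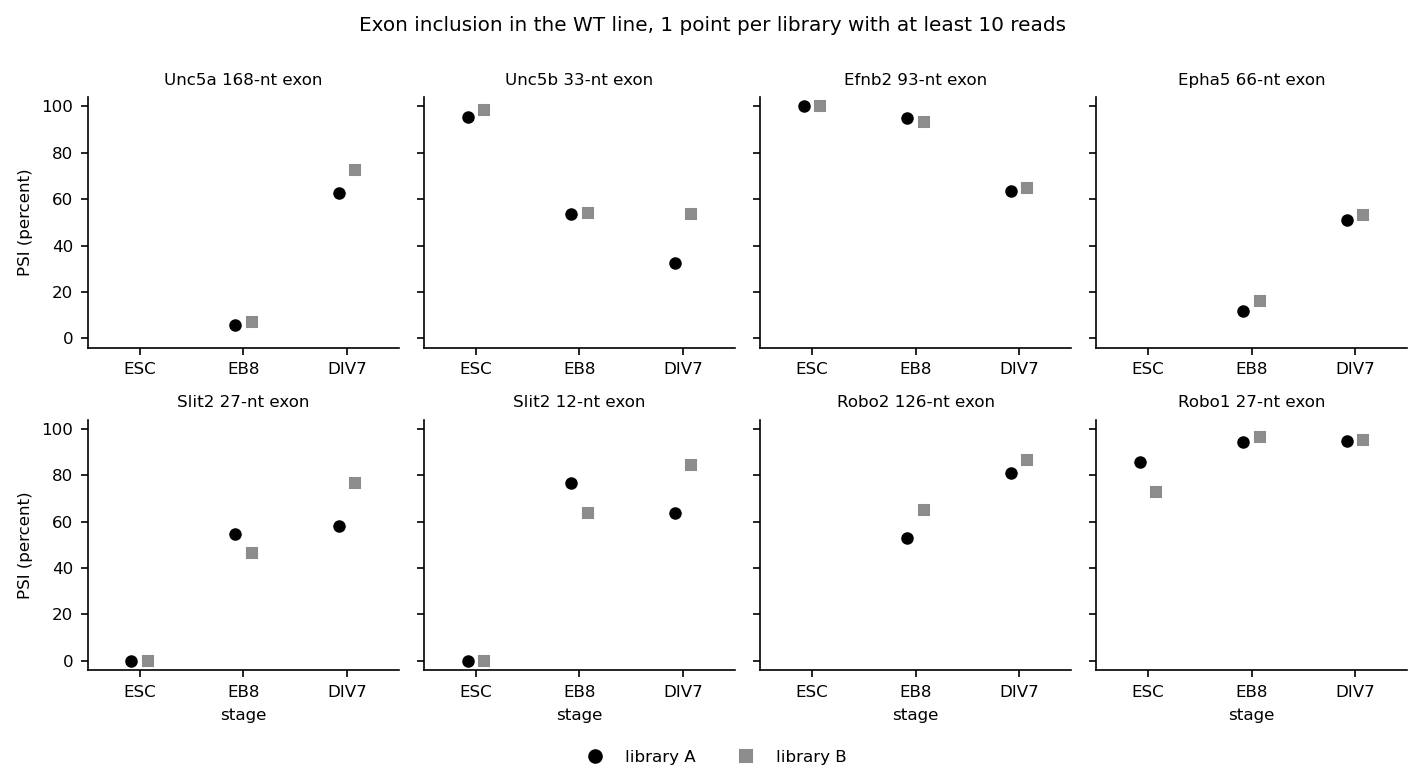
Percent spliced in (PSI) of 8 exons in the WT line, with 1 point per library that had at least 10 reads, by stage. The Unc5a and Epha5 exons rise between EB8 and DIV7, the Efnb2 exon falls there, and the Slit2 27-nt exon rises from 0 between ESC and EB8.

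Microexons of the 43 genes with at least 10 reads in both WT libraries of a stage numbered 15, in 11 genes, and all 15 had lengths that are multiples of 3. In 4 of them (27 nt in Epha4, 3 nt in Neo1, 3 nt in Plxna2 and a second 12-nt row in Robo2) no WT library with enough reads had the exon, with limits from 0.555% to 30% a library. The 4 others that were above a PSI of 97 in every WT library with enough reads were in Nrp2 (21 nt, 100 in all 6), Slit1 (24 nt), Robo3 (24 nt, 97.25 and 97.3 at EB8) and Sema6a (21 nt, 97.4 to 99.5). The remaining 7 in Slit2, Robo1, Robo2 and Unc5d are those described above.

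In the edited lines, Puf60_pEx5_HOM stem cells had less of 5 guidance genes than WT, and 1.5% of all genes were called lower there. Of the 43 genes 0 were called higher, where 135 of all 13938 were. By adjusted p alone 10 of the 43 were lower and 3 higher. Sema6a, a transmembrane ligand, had 6.46 and 8.43 CPM against 23.3 and 33.2 in WT, a change of -1.78 ± 0.22 (adjusted p = 1.79e-05) that passed under every alternative tried. Nrp1 had 0.76 and 0.36 against 2.20 and 2.76 (-1.16 ± 0.19, 0.000144), and Slit1 had 1.10 and 0.66 against 2.54 and 3.04 (-1.02 ± 0.22, 0.00286). Sema3e, a ligand of plexin D1, had 25.8 and 29.5 against 52.9 and 63.4 (-1.05 ± 0.28, 0.0114), and Ntn1 had 17.6 and 16.8 against 36.2 and 36.9 (-1.05 ± 0.29, 0.0181). The libraries of the 2 lines did not overlap for any of the 5, nor for 61.1% of all genes. The 5 were picked by the test on these same libraries.

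Some of these calls were close to the limits. Ntn1 was not called without any 1 of the 4 libraries (adjusted p = 0.0702 to 0.0988), nor was Sema3e without WT B (0.113) or Puf60_pEx5_HOM A (0.0916). Slit1 was -0.93 (0.0442) without WT B, -0.85 (0.0518) without Puf60_pEx5_HOM B and -0.95 with these groups fitted alone, and it did not pass with voom weights (0.21). Nrp1 was -0.98 without Puf60_pEx5_HOM B. Ntn1 did not pass with voom weights either (0.0599), and under quantile scaling Ntn1 (-0.96) and Sema3e (-0.98) were under 2-fold. The authors' deposited table has 11 of the 43 genes at an FDR under 0.05 and at least 2-fold in this comparison, the 5 above and 6 more. In that table the largest of the 6 others are Unc5c (log2 change -2.32) and Robo2 (-1.98), which here were -0.41 ± 0.16 and -0.92 ± 0.14 on the log2(CPM + 1) scale. In the same stem cell libraries 5 of 8 fibroblast and mesenchyme markers were lower (summed 40.7 to 68.7 CPM against 294 to 430 in WT), as were 2 of 6 neural progenitor markers fitted and 2 of 7 endoderm and epithelium markers. Their part in the result was not tested.

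At EB8 the same line had less Efna3, a GPI-linked ephrin, with 4.79 and 4.83 CPM against 10.5 and 12.5 in WT (-1.10 ± 0.17, adjusted p = 9.13e-05, where 1.44% of all genes were called lower). Without WT B the change was -0.98. By adjusted p alone, 6 of the 43 genes were lower (7.57% of all genes) and 0 higher (2.66%), among them Epha5 (-0.83 ± 0.16, adjusted p = 0.000929) and Unc5d (-0.69 ± 0.16, 0.00672). The neuron markers summed to 800 to 949 CPM in these 2 libraries against 1242 to 1385 in WT, and 1 of 8 was called lower. Their part was not tested. At DIV7 limma called 0 of the 43 genes in this line (2.57% of all genes were called), and 6 had an unadjusted p under 0.05.

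Puf60_mEx5_HOM embryoid bodies had more of 13 guidance genes by adjusted p, all under 2-fold. None of the 43 was called by limma at EB8 (1.64% of all genes were called), and 23 had an unadjusted p under 0.05. Those 13 were higher where 11.8% of all genes were, and 1 was lower (6.39%). The largest were Sema3a (0.99 ± 0.18, adjusted p = 0.000639), Nrp2 (0.94 ± 0.17), Ephb1 (0.89 ± 0.17), Unc5d (0.88 ± 0.16) and Efna3 (0.81 ± 0.17), and the lower gene was Unc5b (-0.60 ± 0.20). In the authors' deposited table Sema3a is the one gene of the 43 past 2-fold at an FDR under 0.05 (log2 change 1.13). Neuron markers summed to 1866 to 2146 CPM in these libraries, against 1242 to 1385 in WT, and endoderm and epithelium markers to 24.9 to 35.4 against 86.6 to 101, with 4 of 7 called lower. Their part was not tested.

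At DIV7 this line had less Robo3 and Ntn1, where 0.215% of all genes were called lower. Robo3 had 1.31 and 0.98 CPM against 6.04 and 4.23 in WT, a change of -1.50 ± 0.20 (adjusted p = 0.000127). With these 2 groups fitted alone it was -1.53 (0.192), and with voom weights -2.15 (0.07). Ntn1 had 88.4 and 41.6 against 193 and 116 (-1.29 ± 0.29, 0.0344), and the 2 libraries of each line differed by over 1.5-fold. Without WT A the change was -0.93 (0.5), and without Puf60_mEx5_HOM B -0.76 (0.341). Fibroblast and mesenchyme markers summed to 4331 (A) and 1455 CPM (B) in these libraries and to 2121 (A) and 642 (B) in WT. The line was higher within each letter, the libraries of the 2 lines overlapped across letters, and 0 of 8 markers were called. Neural progenitor markers summed to 1200 to 1326 CPM against 1695 to 2043 in WT, with 1 of 6 fitted called lower. The libraries of 5 of 6 did not overlap, where those of 44.5% of all genes did not. The part of these cell types was not tested. The authors' deposited table gives Ntn1 a log2 change of -1.22 (FDR 0.0416) and Robo3 -2.10 (FDR 0.502). At ESC 0 of the 43 were called (0.0789% of all genes), with 5 at an unadjusted p under 0.05. The authors' deposited table has Robo2 (log2 change 1.26) and Nrp1 (1.18) past its FDR and 2-fold there, and here they were 0.80 (adjusted p = 0.00779) and 0.87 (0.0438).

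In Puf60_pEx5_HET and Rbm38KO limma called none of the 43 genes at any stage. At an unadjusted p under 0.05 the counts were 1, 10 and 3 for Puf60_pEx5_HET at ESC, EB8 and DIV7 and 5, 6 and 1 for Rbm38KO, and the authors' deposited table has 0 past its FDR and 2-fold in each. Of all genes, 0.0359%, 0.115% and 0.574% were called in the Puf60_pEx5_HET comparisons and 0.0359%, 0.043% and 0.301% in those of Rbm38KO.

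**Figure D4:**
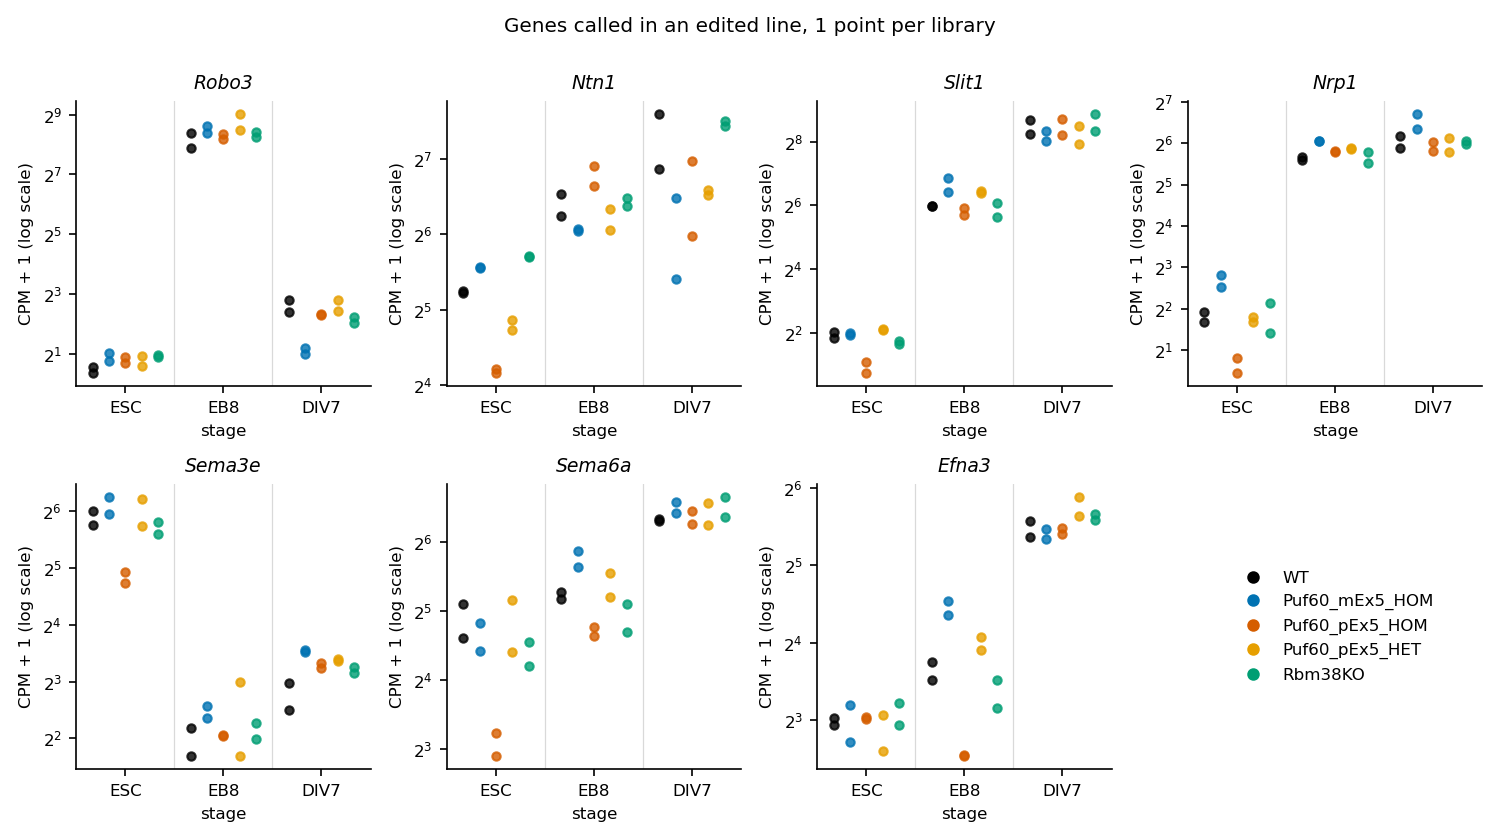
CPM + 1 on a log scale of the 7 genes called in an edited line, by stage and line, with 1 point per library. Sema6a in Puf60_pEx5_HOM stem cells (6.46 and 8.43 CPM) and Robo3 in Puf60_mEx5_HOM at DIV7 (1.31 and 0.98 CPM) lie below all other libraries of their stage, as does Efna3 in Puf60_pEx5_HOM at EB8.

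Events called in the edited lines lay in embryoid bodies, except 1 at DIV7. Fewer events could be fitted at the other stages, 36 in 12 genes at ESC and 82 in 24 at DIV7, against 105 in 29 at EB8. Among those called at EB8, the Robo2 and Slit2 exons had too few reads at ESC, and the Robo3 intron at ESC and DIV7. The comparisons share their WT libraries, so values of the lines are given side by side. Puf60_mEx5_HOM had 7 called events in 5 genes at EB8 among 105 fitted (0.613% of all rows were called), and Puf60_pEx5_HOM had 6 events in 3 genes there (2.27%). The Neo1 159-nt exon printed above had a PSI of 47.0 and 41.0 in Puf60_mEx5_HOM, 76.3 and 74.1 in WT, and 92.4 and 92.4 in Puf60_pEx5_HOM. These are changes of -31.2 points (adjusted p = 0.00012) and 17.2 points (3.01e-05), with no overlap of libraries, and both passed without any 1 library. Puf60_pEx5_HET had 66.2 and 69.4 and Rbm38KO 78.1 and 82.1, and neither was called.

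The Neo1 33-nt exon moved in the opposite sense, with 49.4 and 49.2 in Puf60_mEx5_HOM (17.1 points, adjusted p = 0.033), 29.3 and 35.05 in WT, and 14.4 and 11.8 in Puf60_pEx5_HOM (-19.1 points, 0.000673). The Neo1 acceptor that leaves out 48 nt was used in 36.6 and 33.5% (-21.5 points, 0.0506, not called), 59.7 and 53.4% and 77.8 and 77.8% (21.3 points, 0.0157). For all 3 segments the Puf60_mEx5_HOM libraries at EB8 lay between the WT libraries of EB8 and of DIV7, and those of Puf60_pEx5_HOM between WT ESC and WT EB8. The neuron marker sums of the lines were in the same order, 1866 to 2146, 1242 to 1385 and 800 to 949 CPM, and their part was not tested. At DIV7 the exons of 159 and 33 nt differed from WT by -1.61 and -0.47 points in Puf60_mEx5_HOM and by 0.24 and 4.40 in Puf60_pEx5_HOM, without passing the test.

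Other events were called in Puf60_mEx5_HOM embryoid bodies. The Slit2 24-nt exon had 35.2 and 30.1 against 65.3 and 64.7 in WT (-32.3 points, adjusted p = 0.0252), with 83.0 and 83.3 in Puf60_pEx5_HOM, which was not called. The Robo1 9-nt exon had 10.5 and 8.37 against 29.3 and 25.5 (-18.0 points, 0.0311), and the Efnb2 93-nt exon 82.8 and 83.4 against 94.9 and 93.3 (-11.1 points, 0.00528). These 3 differences had the sign of the WT step to DIV7, which for the Slit2 exon did not pass. The Nrp2 51-nt exon had the opposite sign, with 32.7 and 30.3 against 50.6 and 53.1 (-20.4 points, 0.0227). It was also below WT in this line at ESC (37.4 and 43.7 against 52.6 and 65.2) and DIV7 (63.3 and 66.5 against 76.1 and 78.7), though neither passed (0.53 and 0.127). The Unc5a 168-nt exon was at 14.6 and 16.5 against 5.69 and 7.16, a difference of 9.13 points (0.00491) that stayed under 10. Use of the 60-nt acceptor segment of Neo1 was 16.12 and 15.97% against 39.71 and 26.99% (-17.3 points, 0.0311), a call lost without WT A, Puf60_mEx5_HOM A or Puf60_mEx5_HOM B (0.217 to 0.516).

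In Puf60_pEx5_HOM the Robo2 273-nt exon was higher at both stages with reads. Its PSI was 75.4 and 71.4 at EB8 against 38.5 and 40.3 in WT (34.1 points, adjusted p = 0.00229) and 63.1 and 59.6 at DIV7 against 33.5 and 40.4 (24.4 points, 0.000325). This DIV7 event was the only one called for the 43 genes in that comparison (1.52% of all rows were called), and the WT step between these stages did not pass the test. Puf60_pEx5_HET had 48.0 and 55.8 at EB8 and 47.4 and 50.3 at DIV7, between WT and Puf60_pEx5_HOM and not called. The exon is coding, at chr16:73898912-73899184 on the minus strand, in the part of Robo2 inside the cell. In the DIV7 libraries of Puf60_pEx5_HOM stem cell markers summed to 170 to 248 CPM against 65.9 to 67.8 in WT, with 6 of 8 called higher and 1 lower. Called lower were 3 of 6 astrocyte, 3 of 5 oligodendrocyte lineage and 3 of 8 fibroblast and mesenchyme markers fitted. So were 4 of 7 endoderm and epithelium, 3 of 6 endothelium (with 1 higher) and 1 of 6 neural progenitor markers. Of 8 neuron and 4 neural crest and peripheral glia markers, 0 were called. Their part was not tested.

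Puf60_pEx5_HOM also included the Robo2 12-nt exon more at EB8, 85.05 and 88.7 against 49.8 and 60.0 (31.97 points, 0.0123). Robo3 is known to be made in forms that differ by retention of an intron near its 3′ end, which change its activity at the midline. Intron 26 of 27 of Robo3-202, 405 nt at chr9:37416921-37417325, was retained in 40.9 and 47.1% in Puf60_pEx5_HOM at EB8 against 18.5 and 26.7% in WT (21.4 points, adjusted p = 0.00182), from 614 to 950 reads a library. Puf60_mEx5_HOM had 26.4 and 21.3%, Puf60_pEx5_HET 30.9 and 38.4% and Rbm38KO 34.7 and 36.7%, none of them called.

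No event of the 43 genes was called in Puf60_pEx5_HET or Rbm38KO at any stage, where 0.0136%, 0.0107% and 0.0188% of all rows were called for Puf60_pEx5_HET and 0%, 0.00356% and 0% for Rbm38KO. The same held for Puf60_mEx5_HOM (0.00908%) and Puf60_pEx5_HOM (1.72%) at ESC and for Puf60_mEx5_HOM at DIV7 (0.101%). At an unadjusted p under 0.05 Puf60_pEx5_HET had 2, 20 and 6 rows at ESC, EB8 and DIV7, Rbm38KO 2, 21 and 7, the Puf60_mEx5_HOM and Puf60_pEx5_HOM lines 4 and 9 at ESC, and Puf60_mEx5_HOM 16 at DIV7. All rows were tested with limma. The events called in edited lines rest on weights for the number of reads: without weights limma called 0 of them, at the same PSI differences (adjusted p = 0.0585 to 0.452). The Neo1 159-nt exon in both lines, the Neo1 33-nt exon in Puf60_pEx5_HOM, the Robo2 273-nt exon and the Robo3 intron passed without any 1 library, while the Slit2, Nrp2, Robo1 and Neo1 33-nt calls in Puf60_mEx5_HOM were each lost without any 1 of the 4 libraries. The Efnb2 exon, the Robo2 12-nt exon and the Neo1 48-nt acceptor were each lost without 3 of the 4.

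**Figure D5:**
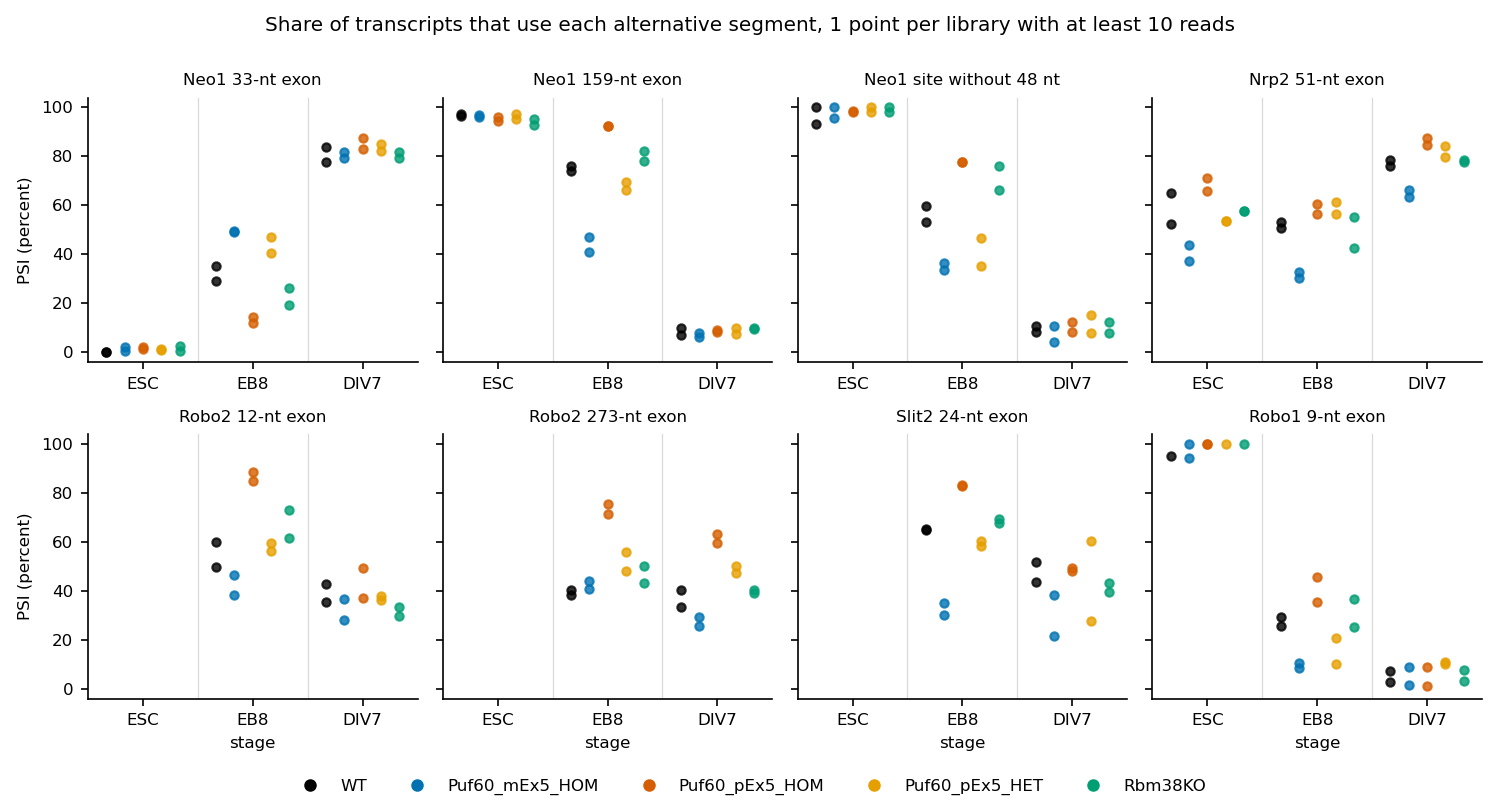
PSI of 8 alternative segments by stage and line, with 1 point per library that had at least 10 reads (the third panel plots use of the Neo1 acceptor that leaves out 48 nt). At EB8 the Neo1 159-nt exon runs from 41.0 and 47.0 in Puf60_mEx5_HOM to 92.4 in Puf60_pEx5_HOM, and all lines lie between 6.06 and 10.12 at DIV7.

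Other genes of the pathway were called in the same WT steps. Of 43 further guidance ligands and receptors, 40 could be fitted, and 21 rose and 5 fell from ESC to EB8 (52.5% and 12.5%, where 21.7% and 18.2% of all genes did), with 15 and 8 from EB8 to DIV7 (37.5% and 20%, where 17.6% and 12.7% did). The largest rises to EB8 were in Ntng2, a membrane-anchored netrin (0.40 to 78.0 CPM on average, 5.82 ± 0.21), Rgma, a ligand of neogenin (5.19 ± 0.21), Boc, a Shh co-receptor of commissural axons (5.10 ± 0.23), and Ntn4 (4.84 ± 0.16). The largest falls were in the Eph receptor genes Epha2 (485 to 9.53 CPM, -5.58 ± 0.47) and Epha1 (-4.02 ± 0.37), followed by Robo4 (-2.14 ± 0.21) and Sema4d (-1.26 ± 0.14). From EB8 to DIV7 the cell adhesion receptors Dscam (16.1 to 215 CPM, 3.65 ± 0.15) and Dscaml1 (3.60 ± 0.22) rose most, then Lrrc4c and Sema5a, while Boc (-2.68 ± 0.23), Ntng2 (-2.65 ± 0.21), Ephb4 (-1.94 ± 0.22) and Efna4 (-1.76 ± 0.23) fell.

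Of 47 intracellular effectors of guidance, 24 rose and 5 fell to EB8 (51.1% and 10.6%, where 21.7% and 18.2% of all genes did). To DIV7, 15 rose and 5 fell (31.9% and 10.6%, where 17.6% and 12.7% did), and the share that fell there was close to that of all genes. The collapsin response mediator genes Dpysl4 (7.54 to 374 CPM, 5.46 ± 0.12) and Dpysl3 (3.87 ± 0.16), the Slit-Robo GTPase activating gene Srgap3 (4.03 ± 0.14) and the growth cone protein gene Gap43 (3.85 ± 0.17) rose most. The actin regulators Enah (-1.55 ± 0.08) and Vasp (-1.54 ± 0.08), the motor gene Myo10 (-1.72 ± 0.24) and Dock1 (-1.16 ± 0.16) fell. In the second step Ablim3 (9.40 to 245 CPM, 4.56 ± 0.14), the kinase gene Pak3 (2.87 ± 0.13) and Ngef (2.48 ± 0.17) rose, and Fes (-2.22 ± 0.22), Rgs3 (-1.67 ± 0.18), Abl1 (-1.38 ± 0.12) and Mical1 (-1.29 ± 0.21) fell.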

How the data were processed

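Junction reads were summed per gene from the read counts that the authors deposited for each intron in the splicing table, in which PSI is a percent per library, per the file headers. Gene RPKM (1 value per group) and log2 fold changes with FDR (a corrected p-value) came from the authors' deposited table. Per the submitters' processing notes Salmon 0.14.1, edgeR and mm10 were used, and the sources used here do not give their roles. Genes with at least 1 CPM in 2 libraries were tested with limma 3.58.1 (R 4.3.3, trend and robust) on log2(CPM + 1), scaled by the median of ratios, over 30 libraries and 15 groups with 15 residual degrees of freedom. Splicing events were kept where each library fitted had 10 reads or more and the mean PSI lay from 5 to 95, and tested with limma on weighted log2 ratios of inclusion to exclusion reads, with 1 read added. P-values were adjusted over all genes or events (Benjamini-Hochberg). Both fits were run on simulated data with a fixed spread, which cannot show how often calls are false at the spread between these libraries. Named genes were those called, up to 10 per direction in a WT step with at least 5 RPKM, all in an edited line, and up to 8 or 4 events per WT step or line and stage, with microexons of up to 27 nt and up to 4 genes per direction of a pathway list. Any other event mentioned was chosen after its values were seen. One gene that the rule names is not reported here. The members and lists were chosen with earlier results of these data known. With 2 replicate letters, shared letters could not be shown to pair libraries at every stage. Same-lettered libraries deviated together at ESC (correlations of 0.32 to 0.53), but not in all pairs of groups at EB8 and DIV7. The main fits had no term for the letters.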

Additional observations from a re-analysis of the deposited data

Results flagged for a closer look

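These genes were called in an edited line and their change against WT differed between stages by the interaction term of the limma fit (log2 scale, SE, adjusted p over all genes). As the genes were picked for those calls, the terms are not independent of them. Robo3 in Puf60_mEx5_HOM was lower at DIV7 than its change at EB8 by -1.88 (SE 0.28, 0.00168) and at ESC by -1.95 (SE 0.28, 0.00144). Robo3 was near the floor in WT ESC (0.12 RPKM), where log2(CPM + 1) leaves little room for a fall. Its DIV7 call in limma did not pass with voom weights (adjusted p = 0.07) or with the groups fitted alone (0.192). In Puf60_pEx5_HOM, genes low in stem cells differed at EB8 by 1.43 for Ntn1 (SE 0.41, 0.0307), 1.33 for Nrp1 (SE 0.26, 0.00183) and 1.26 for Sema6a (SE 0.32, 0.0127). At DIV7 they differed from ESC by 1.02 for Slit1 (SE 0.31, 0.0406), 1.05 for Nrp1 (SE 0.26, 0.0121), 1.59 for Sema3e (SE 0.39, 0.0118) and 1.81 for Sema6a (SE 0.32, 0.00115). Efna3, low in this line at EB8, differed there from ESC by -1.15 (SE 0.23, 0.0022), and DIV7 differed from EB8 by 1.07 (SE 0.23, 0.00557).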

How the results depend on the processing

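No WT step of the 43 genes, no change of theirs past adjusted p in an edited line and no called event turned in direction under the alternatives run, which left out the other pathway genes and events not called. Genes called in the WT steps mostly kept their side of the threshold, with Efna5 (0.92 in the first step under quantile scaling) and Sema6a (0.94 in the second under total scaling) among the exceptions. With a pseudocount of 0.25 CPM the calls rose to 4 in Puf60_mEx5_HOM and 11 in Puf60_pEx5_HOM, summed over stages, from 2 and 6. With the compared groups fitted alone Puf60_mEx5_HOM had 0. A PSI threshold of 20 points left 13 events from EB8 to DIV7 and 8 in the edited lines, of 22 and 14, and no weights left 0 in the edited lines. Leaving out 1 library at a time, where a lone library is assumed to vary like the other groups, gave 1 to 4 genes for Puf60_mEx5_HOM, 3 to 7 for Puf60_pEx5_HOM, 0 to 1 for Puf60_pEx5_HET and 0 for Rbm38KO. It gave 31 higher and 2 lower genes from ESC to EB8, 16 to 17 and 4 to 6 from EB8 to DIV7, and 6 to 10, 17 to 21 and 7 to 17 events for the 2 WT steps and the edited lines. The cause of these moves was not tested.

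With a replicate block for the letters A and B the counts were 31, 2, 16 and 5 genes in the WT steps, 2, 6, 0 and 0 in the lines, and 9, 23 and 17 events. The block gained the Neo1 48-nt acceptor in Puf60_mEx5_HOM (0.0414) and, in Puf60_pEx5_HOM, the Slit2 27-nt (-21.3 points, 0.0321) and Unc5b 33-nt exons (34.1 points, 0.042), all at EB8 and at 0.0506, 0.0519 and 0.0597 without it. It also gained a Plxna3 intron in WT (0.0494) and lost no event. Libraries with the same letter had correlations of deviations between 0.32 and 0.53 (ESC), -0.26 and 0.62 (EB8), and -0.21 and 0.60 (DIV7). Crossing the letters of Puf60_pEx5_HET and Rbm38KO at DIV7, a pairing chosen after seeing the data, gave the same counts of genes and 9, 24 and 19 events. Junction depth limited events of low genes: the Slit2 24-nt exon had 3 to 78 reads a library.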
